A study of Mus musculus with 30 samples.

Results

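The genes described here encode the machinery of DNA replication and of mitosis, followed across 6 groups of mouse salivary glands. They are 40 listed cell division genes, of which 39 had a probe set that the platform table ties to exactly 1 gene. Ccnb1, a listed cyclin gene, had none. Where several probe sets measured a gene, the one brightest on average was used. Of these 39 genes, 32 were among the 12998 genes tested, out of 18193 genes with a probe set. Testing required a signal over the array median on at least 5 arrays, from any groups. Tyms, Melk, Aurkb, Bub1, Ttk, Cenpe and Kif20a did not reach this level and are described separately.

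Total salivary gland RNA of female NOD.H-2h4 mice, a strain prone to autoimmune inflammation of thyroid and salivary gland, was hybridised to 30 Affymetrix mouse whole-genome arrays. Each mouse had received 1 intraperitoneal dose of 20 mg/kg antibody at 4 weeks of age. The treated groups had anti-CD40L, which blocks a signal from activated T cells to CD40 on B cells and other cells, and the control groups had a human IgG1 isotype antibody. Glands were collected at week 8, week 16 or week 24, with 5 arrays for each antibody and week, labelled as biological replicates. All 6 groups therefore shared strain, sex, dose, route and age at dosing, and differed in the antibody and the age at collection. No untreated mice were analysed here. Values are log2 intensities and differences are on the log2 scale, so a difference of 1 is a 2-fold change of signal, and 5 arrays per group limit the precision.

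Dividing cells first commit to the cycle through cyclin D and E kinases, which release E2F factors that switch on genes for nucleotide supply and DNA replication. Later, the DREAM complex is replaced by activators that include FOXM1, and genes for cyclins A and B, CDK1, the spindle, the kinetochore and mitotic exit are switched on through CHR and CCAAT elements. The adult salivary gland renews slowly, and its dividing cells include duct, acinar and resident or infiltrating immune cells. The arrays measured whole gland, so more dividing cells and more message per dividing cell cannot be told apart.

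Promoters of 6 genes are shown because these genes had the largest week 16 treatment differences of mitosis (Birc5, Cdk1, Ube2c and Mki67) and of replication (Rrm2 and Mcm5) among those that could be shown; Pbk had no window. Each sequence runs 5′ to 3′ on the strand of the gene, from 250 bases before the RefSeq start to 50 bases after it, in build GRCm38.p6. Capitals mark letters found on either strand: TTTGAA or TTTAAA (the CHR core and a variant of it), CCAAT, and the E2F cores TTTCCCGC, TTTGGCGC, TTTCGCGC and TTTGCCGC. On the opposite strand these appear as their reverse complements, such as TTCAAA and ATTGG, while TTTAAA is its own reverse complement.
Birc5: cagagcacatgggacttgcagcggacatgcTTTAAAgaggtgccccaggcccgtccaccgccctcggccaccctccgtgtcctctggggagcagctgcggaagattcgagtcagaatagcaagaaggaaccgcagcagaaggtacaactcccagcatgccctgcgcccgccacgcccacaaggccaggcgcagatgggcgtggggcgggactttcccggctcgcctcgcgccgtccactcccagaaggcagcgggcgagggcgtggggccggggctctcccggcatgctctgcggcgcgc
Cdk1: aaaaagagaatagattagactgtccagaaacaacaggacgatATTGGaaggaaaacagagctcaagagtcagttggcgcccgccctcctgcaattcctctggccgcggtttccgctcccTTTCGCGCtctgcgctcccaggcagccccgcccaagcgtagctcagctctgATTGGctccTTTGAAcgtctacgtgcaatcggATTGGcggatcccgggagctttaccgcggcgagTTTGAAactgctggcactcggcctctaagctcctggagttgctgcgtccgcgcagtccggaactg
Ube2c: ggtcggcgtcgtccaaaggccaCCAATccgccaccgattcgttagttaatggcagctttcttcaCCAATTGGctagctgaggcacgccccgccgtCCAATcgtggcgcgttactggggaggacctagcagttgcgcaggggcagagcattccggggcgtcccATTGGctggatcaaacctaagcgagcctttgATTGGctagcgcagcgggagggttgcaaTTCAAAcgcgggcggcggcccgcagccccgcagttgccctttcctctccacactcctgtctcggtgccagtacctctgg
Mki67: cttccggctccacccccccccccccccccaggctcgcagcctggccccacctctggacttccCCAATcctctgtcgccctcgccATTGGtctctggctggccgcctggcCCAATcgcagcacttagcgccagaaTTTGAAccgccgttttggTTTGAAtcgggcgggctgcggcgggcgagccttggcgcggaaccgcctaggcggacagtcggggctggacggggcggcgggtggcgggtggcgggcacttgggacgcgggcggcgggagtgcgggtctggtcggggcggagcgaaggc
Rrm2: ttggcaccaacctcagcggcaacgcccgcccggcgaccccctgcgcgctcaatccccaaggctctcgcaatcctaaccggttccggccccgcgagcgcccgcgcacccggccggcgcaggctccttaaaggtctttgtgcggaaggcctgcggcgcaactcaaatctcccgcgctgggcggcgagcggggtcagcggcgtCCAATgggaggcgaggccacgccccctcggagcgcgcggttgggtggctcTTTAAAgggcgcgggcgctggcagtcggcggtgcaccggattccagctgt
Mcm5: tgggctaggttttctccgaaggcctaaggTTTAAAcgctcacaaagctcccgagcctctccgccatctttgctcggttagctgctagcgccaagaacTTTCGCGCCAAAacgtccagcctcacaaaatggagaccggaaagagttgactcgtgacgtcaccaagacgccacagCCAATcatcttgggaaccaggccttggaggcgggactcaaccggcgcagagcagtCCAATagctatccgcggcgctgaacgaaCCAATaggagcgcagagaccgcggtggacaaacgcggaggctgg

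The windows lie at chr11:117848987-117849286 on the plus strand for Birc5, chr10:69352863-69353162 on the minus strand for Cdk1 and chr2:164769679-164769978 on the plus strand for Ube2c. Those of Mki67, Rrm2 and Mcm5 lie at chr7:135716330-135716629 on the minus strand, chr12:24708004-24708303 on the plus strand and chr8:75109259-75109558 on the plus strand. Cdk1 held TTTGAA at 71 and again at 15 bases before the start, with CCAAT on the opposite strand at 208, 80 and 48 bases before it and TTTCGCGC at 131. Mki67 held TTTGAA at 116 and 98 bases before the start and 3 CCAAT letters between 188 and 141 bases before it. Ube2c held TTTGAA on the opposite strand at 29 bases before the start and CCAAT 6 times, with a pair of them overlapping on opposite strands in CCAATTGG. Birc5 held only TTTAAA, at 220 bases before the start. Rrm2 held TTTAAA starting at base 1 after the start and CCAAT at 50 bases before it. In Mcm5, TTTCGCGC and an opposite-strand TTTGGCGC overlapped, 153 and 149 bases before the start.

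RefSeq windows matched 33 of the 40 listed genes, 24 of mitosis and 9 of replication, and 27025 genes in all. TTTGAA was in 18 of the 24 mitosis windows (75.0%) and 1 of the 9 replication windows (11.1%), against 18.1% of all windows. An E2F core was in 1 of the 24 mitosis windows (4.17%) and 4 of the 9 replication windows (44.4%), against 2.32% of all. CCAAT was common to both, in 83.3% and 88.9%, against 37.9% of all, and TTTAAA was in 33.3% and 22.2%, against 13.2%. These are matches of letters in a fixed window, not measured binding.

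At week 16, 9 of the 32 tested cell division genes were higher after anti-CD40L at an adjusted p under 0.05 and 0 were lower. Of all genes tested, 1.31% were called higher and 0.577% lower in that comparison. The median difference was 1.06 over the cell division genes and 0.02 over all genes, and 30 of the 32 lay above 0. Those called were the kinase genes Cdk1, Aurka and Pbk, the cyclin gene Ccna2, Birc5 and Cdca8 of the chromosomal passenger complex, Hmmr, Cdca3 and the helicase gene Mcm2. With only the 10 compared arrays in the fit, 1 of the 9 was called, Cdk1 (adjusted p = 0.0447), and with array weights 24 of the 32 were. The share of all genes called is not given here for these fits, so these counts are not set against it. At week 8 and week 24, 0 of the 32 were called in the same comparison. The difference between the effects at week 16 and week 8 was not past the threshold for any of the 32, as described later.

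**Figure D1:**
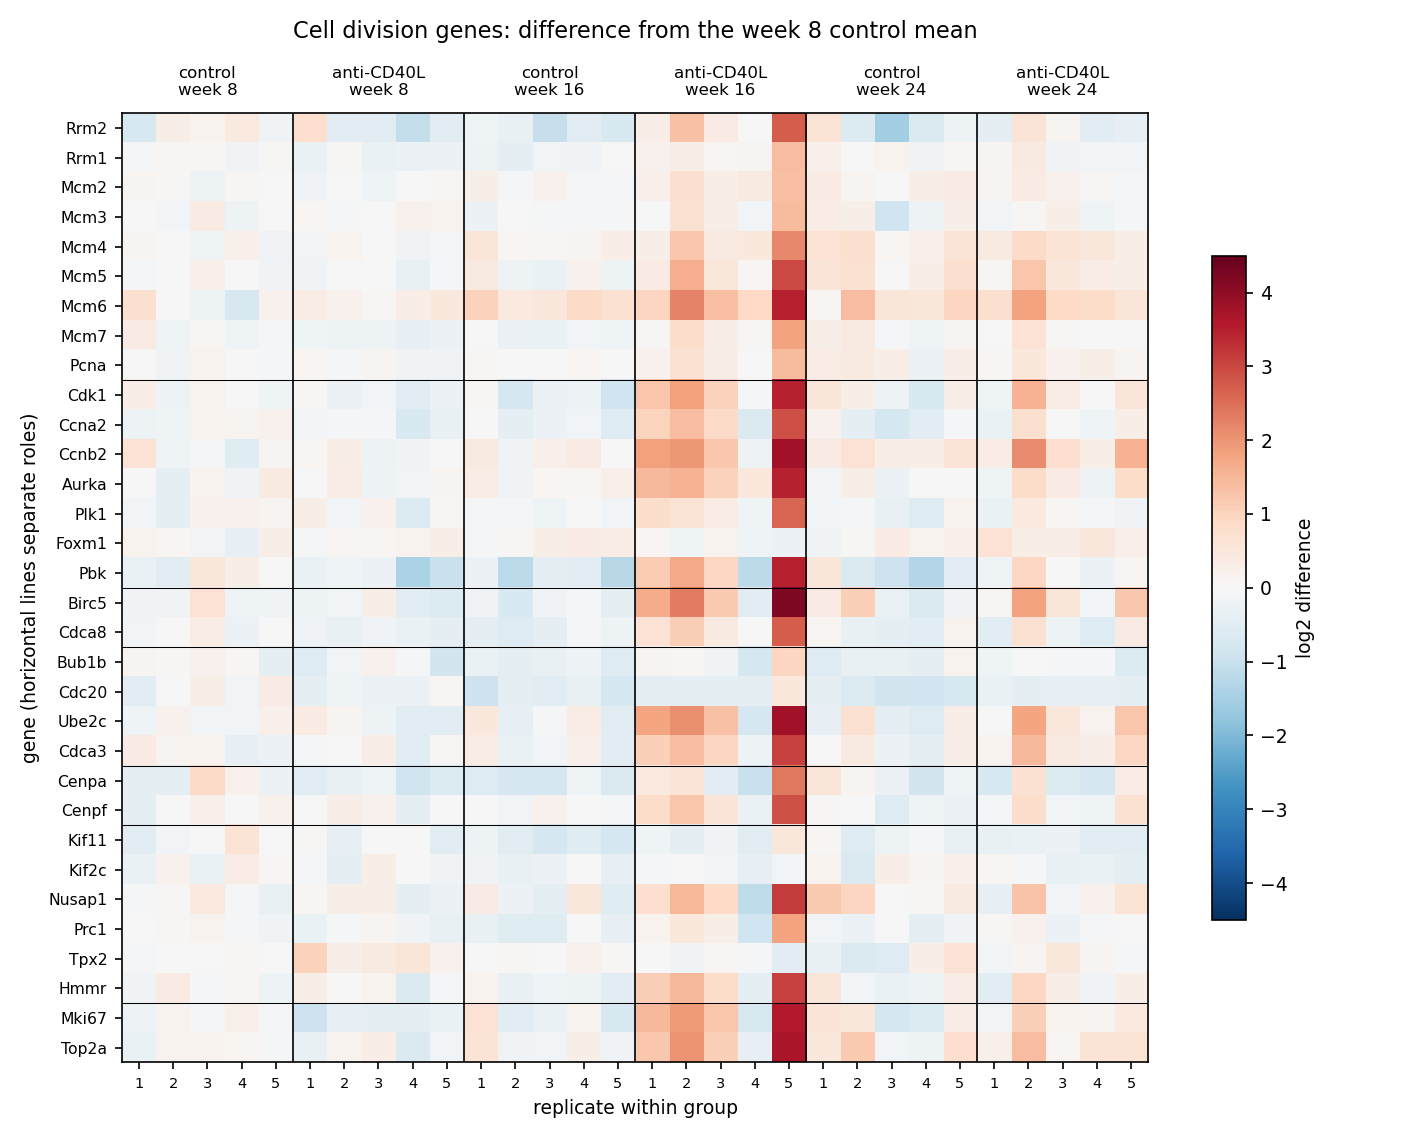
Level of each of the 32 tested cell division genes on each of the 30 arrays, as the log2 difference from the mean of the 5 week 8 controls; columns are replicates within a group and horizontal lines separate roles. The anti-CD40L week 16 block is the reddest, its replicate 5 is the highest in 29 of the 32 genes within that group, and its replicate 4 resembles the controls.

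The 5 treated glands at week 16 differed widely among themselves. Against the mean of the 5 week 16 controls, the median cell division gene was 2.91 higher in replicate 5, which is 7.51-fold, 1.35 higher in replicate 2, 0.82 in replicate 1 and 0.59 in replicate 3. Replicate 4 lay 0.13 below the control mean. Replicate 5 was the highest treated array in 29 of the 32 genes and the highest of all 30 arrays in 28. Replicate 4 was the lowest treated array in 25, and the order 5, 2, 1, 3, 4 occurred in 14 genes. The median SD of the 32 genes within the group was 1.11, against 0.22 to 0.46 in the other 5 groups, and 29 genes had their largest SD there. The linear model uses 1 pooled spread per gene, which is smaller than the spread of this group for those genes. The same arrays raise that spread, and with it the SE of comparisons that do not involve them. Comparisons at week 8, at week 24 and among controls are therefore less able to call these genes. With only the compared arrays in the fit, 0 of the 32 were still called at week 8 and at week 24. When replicate 5 was left out, 3 genes were past the threshold, Cdk1, Cdca8 and Aurka, and the median difference was 0.57, with 0.377% of all genes called higher. When replicate 4 was left out, 20 were called, with a median of 1.35 and 0.869% of all genes. Leaving out treated replicate 2 gave 3 calls, and leaving out any 1 control gave 2 to 4, with the share of all genes not given here.

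**Figure D2:**
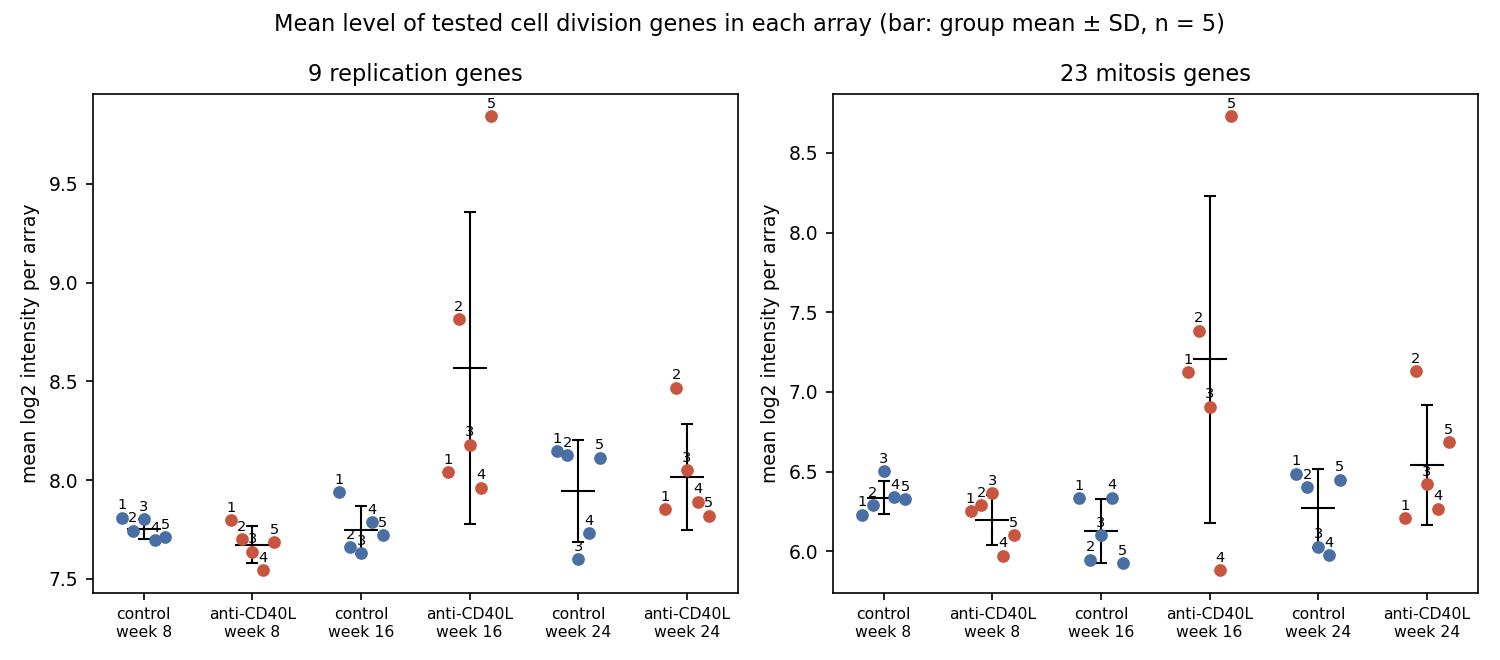
Mean log2 intensity of the 9 replication genes (left) and the 23 mitosis genes (right) on each array, with replicate numbers and the group mean ± SD (n = 5). Treated week 16 arrays span 7.96 to 9.84 for replication and 5.88 to 8.73 for mitosis, with replicate 4 lowest and replicate 5 highest in both panels.

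The summed behaviour of the set shows the same spread. The mean over the 32 genes was 6.58 ± 0.17 (SD, n = 5) in week 16 controls and 7.59 ± 0.94 in treated glands. In the other groups it was 6.74 ± 0.08 and 6.61 ± 0.13 at week 8, and 6.74 ± 0.25 and 6.96 ± 0.33 at week 24, control first. These are means over genes measured by different probes, so they serve to compare arrays and not genes.

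Replication genes supply nucleotides and open and copy the DNA. Of the 9 tested, 1 rose at week 16, Mcm2, a subunit of the helicase that opens origins, and 9 of 9 lay above 0 with a median of 0.68. Mcm2 ranged from 6.81 to 7.17 in the controls and from 7.12 to 8.24 after anti-CD40L. It rose by 0.56 ± 0.14 (SE; adjusted p = 0.0375), with 4 of 5 treated arrays above every control. Pcna, the sliding clamp of DNA polymerases, was measured in controls at 10.97, 10.87, 10.92, 10.98 and 10.89. The treated glands had Pcna levels of 11.09, 11.58, 11.20, 10.91 and 12.33. Replicate 4 fell within the controls and the other 4 lay above them. The Pcna difference of 0.50 ± 0.17 (adjusted p = 0.125) did not pass the threshold.

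The remaining replication genes stayed short of the threshold in this comparison. Rrm2 and Rrm1, the small and large subunits of ribonucleotide reductase, differed by 1.49 ± 0.41 (adjusted p = 0.0519) and 0.60 ± 0.17 (adjusted p = 0.0547). All 5 treated arrays were above all 5 controls for Rrm2, Rrm1 and Mcm7, and also for Aurka and Cdca8, which makes 5 of the 32 genes. That separation held for 6.03% of all genes tested. Mcm7 differed by 0.76 (adjusted p = 0.0593), Mcm5 by 1.13 (adjusted p = 0.0711), Mcm6 by 1.09 (adjusted p = 0.096), Mcm4 by 0.68 (adjusted p = 0.116) and Mcm3 by 0.57 (adjusted p = 0.187). These 5 are subunits of the same helicase ring as Mcm2.

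Of the 7 tested cyclin, kinase and FOXM1 genes, 4 rose at week 16, with a median of 1.48 over the 7. Cdk1 encodes the kinase that drives entry into mitosis. Its control levels were 7.09, 6.25, 6.75, 6.78 and 6.12, and the treated levels were 8.27, 8.85, 8.05, 6.96 and 10.50. Treated replicate 4 overlapped the controls, and the other 4 exceeded all of them. Cdk1 rose by 1.93 ± 0.39 (adjusted p = 0.00816), a 3.80-fold difference, and was past the threshold in every alternative fit that was run. Without replicate 5 the rise was 1.43 (adjusted p = 0.0275).

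Aurka encodes a kinase of centrosome maturation and spindle assembly. Controls had 5.54, 5.03, 5.27, 5.27 and 5.40, and treated glands 6.65, 6.75, 6.22, 5.66 and 8.64. Here even replicate 4 was above every control, so the groups did not overlap. The rise was 1.48 ± 0.32 (adjusted p = 0.0135) and 1.02 without replicate 5 (adjusted p = 0.0257).

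Pbk, a mitotic kinase gene, and Ccna2, the cyclin A2 gene active from S phase into mitosis, did not separate the groups. Pbk was 6.97, 6.05, 6.81, 6.74 and 5.99 in controls and 8.39, 8.97, 8.19, 6.06 and 10.74 after anti-CD40L. Ccna2 was 6.85, 6.45, 6.57, 6.71 and 6.27 in controls and 7.86, 8.22, 7.72, 6.20 and 9.75 after anti-CD40L. For Ccna2 the treated replicate 4 was below every control, and for Pbk it lay within their range. Pbk rose by 1.96 ± 0.49 (adjusted p = 0.0371) and Ccna2 by 1.38 ± 0.35 (adjusted p = 0.0374). Without replicate 5 the values were 1.39 (adjusted p = 0.141) and 0.93 (adjusted p = 0.128).

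Of the other 3, Ccnb2, a cyclin B gene, differed by 1.55 ± 0.42 (adjusted p = 0.0503), and Plk1, a kinase of mitotic entry and cytokinesis, by 0.93 ± 0.30 (adjusted p = 0.0994). Foxm1, which encodes the transcription factor of late cell cycle genes, differed by -0.28 ± 0.12 on the probe set used (adjusted p = 0.278). That set ranged from 11.65 to 12.12 in controls and from 11.46 to 11.89 in treated glands. The other 3 Foxm1 sets differed by -0.14, 0.00 and 0.46, the last pair under the signal filter. Over the 30 arrays the set used averaged 11.86, and the others 6.72, 3.25 and 4.86 in the same order.

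Both tested genes of the chromosomal passenger complex, which corrects chromosome attachment and guides cytokinesis, rose at week 16. Birc5 (survivin) had control levels of 4.93, 4.44, 4.95, 5.04 and 4.71 and treated levels of 6.79, 7.45, 6.30, 4.65 and 9.30. Replicate 4 lay inside the control range while the other 4 were well above it. Birc5 rose by 2.08 ± 0.50 (adjusted p = 0.0299), the largest difference of the 32 genes, at 4.24-fold. Without replicate 5 it was 1.48 (adjusted p = 0.11). Cdca8 (borealin) was 5.95, 5.81, 5.97, 6.30 and 6.17 in controls and 7.05, 7.51, 6.81, 6.41 and 9.12 after anti-CD40L. The groups did not overlap, although replicate 4 exceeded the highest control only slightly. Cdca8 rose by 1.34 ± 0.30 (adjusted p = 0.0213), and by 0.91 without replicate 5 (adjusted p = 0.0417). Its call was lost in 2 of 10 fits with an array left out and in 2 of 11 other settings. One of these was the median over probe sets (adjusted p = 0.151). The other Cdca8 sets differed by 0.60 and 1.03, the former under the signal filter.

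Of 4 tested genes of the spindle checkpoint and of ubiquitin-driven mitotic exit, 1 rose. Cdca3, which promotes mitotic entry, was 5.82, 5.19, 5.36, 5.71 and 4.97 in controls and 6.54, 6.88, 6.43, 5.24 and 8.54 after anti-CD40L. Replicate 4 was again among the controls. Cdca3 rose by 1.32 ± 0.35 (adjusted p = 0.0466), and by 0.86 without replicate 5 (adjusted p = 0.173). Ube2c, the ubiquitin-conjugating enzyme of the anaphase-promoting complex, differed by 1.67 ± 0.47 (adjusted p = 0.0612), its treated arrays spanning 5.83 to 10.36. Bub1b, a checkpoint kinase-like protein gene, differed by 0.42 (adjusted p = 0.38), and Cdc20, an activator of the anaphase-promoting complex, by 0.35 (adjusted p = 0.287).

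Of the 6 tested spindle genes, 1 rose, Hmmr, which encodes a microtubule-associated protein of the spindle poles. Hmmr was 6.004, 5.53, 5.67, 5.63 and 5.34 in controls and 6.96, 7.33, 6.70, 5.44 and 8.94 after anti-CD40L. The rise was 1.44 ± 0.36 (adjusted p = 0.0374), and 0.97 without replicate 5 (adjusted p = 0.128). Replicate 4 was below 4 of the 5 controls. Nusap1 and Prc1, which bundle spindle microtubules, differed by 1.10 (adjusted p = 0.237) and 0.73 (adjusted p = 0.143). The kinesin genes Kif11 and Kif2c differed by 0.40 (adjusted p = 0.276) and 0.08 (adjusted p = 0.895), and Tpx2, an activator of the Aurka kinase, by -0.18 (adjusted p = 0.739).

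Cenpa, the centromeric histone variant, and Cenpf, an outer kinetochore protein gene, differed by 0.98 (adjusted p = 0.234) and 1.03 (adjusted p = 0.0933). Mki67 encodes the proliferation marker Ki-67, which coats mitotic chromosomes. Its control levels were 7.27, 6.09, 6.31, 6.75 and 5.90 and its treated levels 8.05, 8.52, 7.84, 5.89 and 10.18. Replicate 4 was the lowest of the 10 and the other 4 treated glands were above every control. The difference of 1.63 ± 0.44 had an adjusted p of 0.0503. Top2a, the topoisomerase that untangles replicated chromosomes, differed by 1.43 ± 0.42 (adjusted p = 0.0742).

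**Figure D3:**
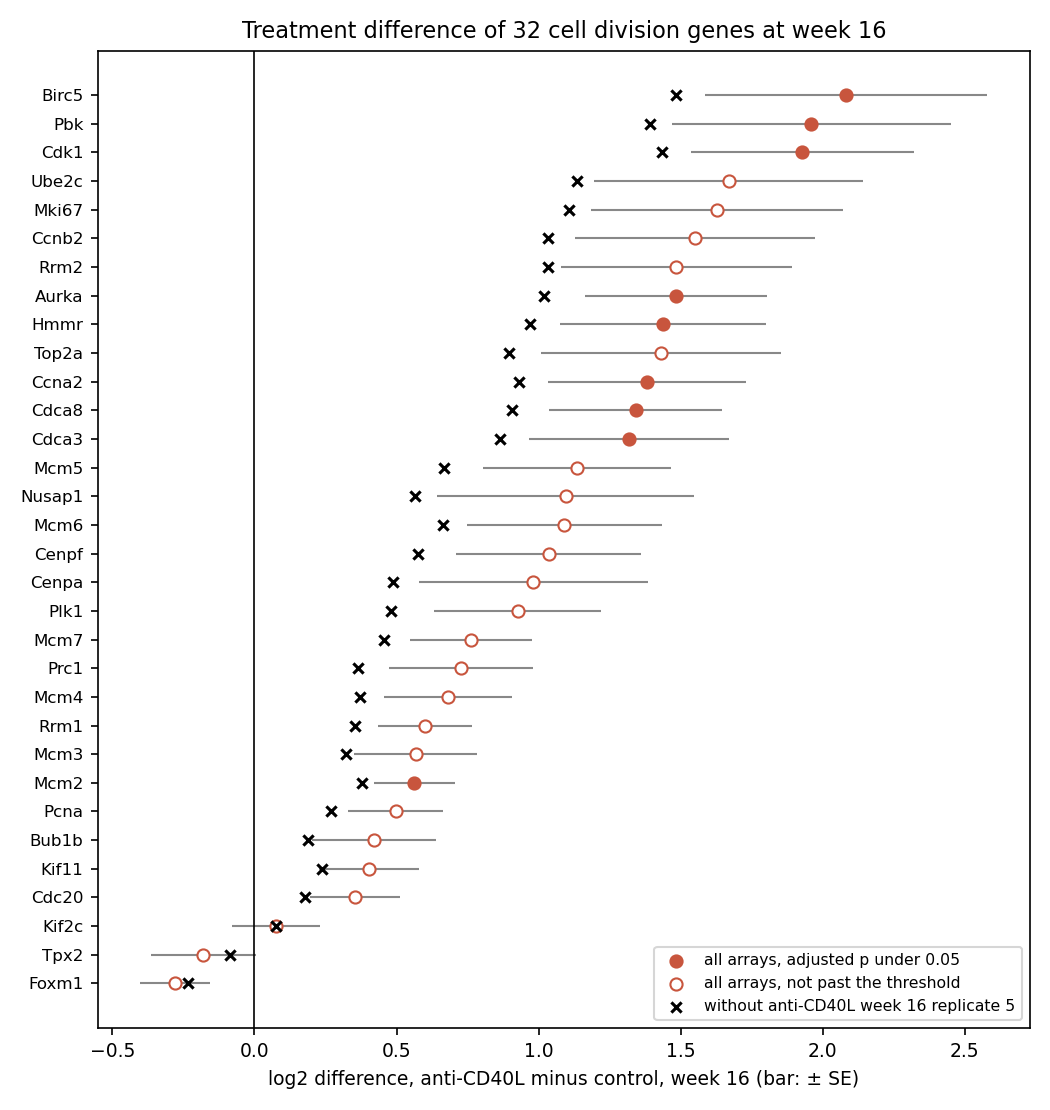
Week 16 treatment difference of each tested cell division gene, anti-CD40L minus control on the log2 scale, with SE; filled points passed an adjusted p of 0.05 and crosses give the difference without treated replicate 5. Leaving that array out moved the difference of Birc5 from 2.08 to 1.48, and 30 of the 32 crosses lie to the right of 0.

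In replicate 4, replication and mitosis genes lay on different sides of the control mean. The median was 0.22 above the control mean over the 9 replication genes and 0.30 below it over the 23 mitosis genes. It was above all 5 controls for 4 of 9 replication genes and 2 of 23 mitosis genes, the latter being Aurka and Cdca8. In replicate 5 the medians were 1.93 for replication and 3.13 for mitosis, with 9 of 9 and 20 of 23 genes above all controls. Replicate 1 stood at 0.21 and 1.05, and replicate 3 at 0.37 and 0.91. These medians describe single arrays and were not tested.

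**Figure D4:**
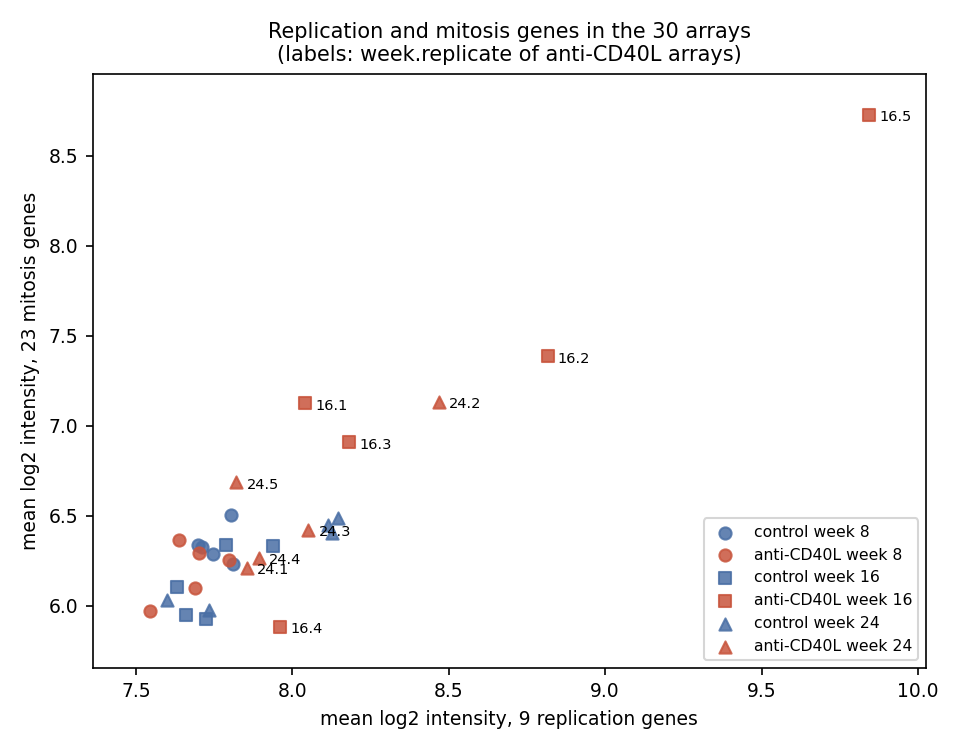
Mean log2 intensity of the 9 replication genes (horizontal) and the 23 mitosis genes (vertical) on each of the 30 arrays, with the anti-CD40L arrays of weeks 16 and 24 labelled by week and replicate. Week 16 replicate 5 stands alone at the upper right, at 9.84 and 8.73, and anti-CD40L week 24 replicate 2, at 8.47 and 7.13, has the highest value on both axes among the arrays of the other groups.

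The 7 genes under the filter were examined in a fit with no filter, where 0 of them passed the threshold at week 16. Kif20a, a kinesin of cytokinesis, differed by 1.11 (adjusted p = 0.0718), Bub1, a checkpoint kinase gene, by 1.12 (adjusted p = 0.125) and Melk, a mitotic kinase gene, by 1.01 (adjusted p = 0.107). Ttk, Aurkb and Cenpe, of the checkpoint, the passenger complex and the kinetochore, differed by 0.99, 0.91 and 0.54. Tyms, which makes thymidylate, differed by 0.08, and its 4 probe sets all lay below the array median on all 30 arrays. In treated replicate 5 alone, Bub1 was 3.27 above the control mean and Melk 2.89 above it. Among the tested genes, Kif11 reached the filter on 5 arrays, Cenpf on 6, and Birc5 and Plk1 on 9, so low signal limits these as well.

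Probe sets of the same gene disagreed for several members. The 39 genes had 96 probe sets, of which 55 met the filter, and 50 of these 55 lay above 0 at week 16 and 24 lay above 1. Among 29 genes with several sets, the set used had the largest difference in 14. Cdc20 differed by 0.35 on the set used but by 1.36 and 1.80 on the other sets, all of which met the filter. Tpx2 differed by -0.18 on the set used and by 0.68, 0.49 and -0.25 on the others, of which the sets at 0.68 and 0.49 were under the signal filter. Kif2c differed by 0.08 against -0.07, 0.72 and 0.29, with the sets at -0.07 and 0.72 under it. In the other direction, Top2a differed by 1.43 on the set used and by -0.10 and 0.01 on the others, and Cdca3 by 1.32 against 0.19 and -0.06. The Top2a set at -0.10 and the Cdca3 set at 0.19 were above the array median on 0 arrays. The isoform or sequence that each set detects was not examined.

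**Figure D5:**
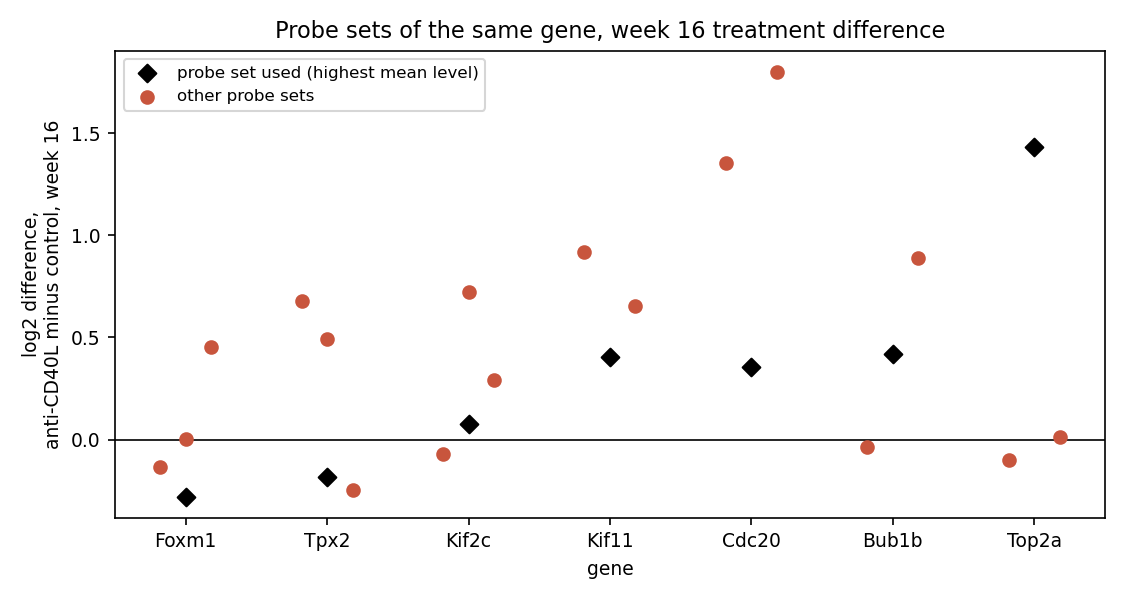
Week 16 treatment difference, anti-CD40L minus control on the log2 scale, of every probe set of 7 cell division genes; black diamonds are the sets used and red circles the others. For Cdc20 the other sets are at 1.36 and 1.80 above a used set at 0.35, and for Top2a the others are at -0.10 and 0.01 below a used set at 1.43.

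Other genes of the cell cycle were counted from lists that hold none of the 40. Of 27 tested further genes of the G1/S transition and replication, 5 rose and 0 fell at week 16, with a median of 0.59. The largest rises there were 1.05 ± 0.25 for Prim1, the primase subunit (adjusted p = 0.0282), 0.93 for Rfc4 of the clamp loader (adjusted p = 0.0466) and 0.90 for Cdt1, which loads the helicase (adjusted p = 0.0457). Of 32 tested further genes of G2/M and mitosis, 4 rose and 0 fell, with a median of 0.73: Ect2, an activator of cytokinesis, by 1.60 ± 0.40 (adjusted p = 0.0374), Spc25 of the kinetochore by 1.32, Shcbp1 by 1.25 and the kinesin gene Kif22 by 1.21. Without treated replicate 5 each of these lists had 1 call, with medians of 0.32 and 0.40, and without replicate 4 they had 7 and 16. Of all genes tested, 1.31% were called higher with all arrays, 0.377% without replicate 5 and 0.869% without replicate 4. Replicate 5 was the highest of all 30 arrays in 24 of the 27 and 28 of the 32.

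Upstream regulators were counted separately. Of 15 tested inhibitors and quiescence genes, 1 rose, Cdkn1a (p21), an inhibitor of cyclin-dependent kinases, by 0.49 ± 0.11 (adjusted p = 0.0199), and the list median was 0.01. Of 7 tested G1 cyclins and kinases, 0 were called, with a median of 0.22. In this comparison 1.31% of all genes were called higher. Replicate 5 was the highest of the 30 arrays in 5 of the 15 and 2 of the 7. Without replicate 5, 0 genes of either list were called.

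Cell type markers and array quality at week 16 were compared with the gene values. The mean of 6 tested of 7 neutrophil markers was 6.38, 6.09, 6.30, 6.60 and 6.81 in treated replicates 1 to 5, against 5.93 to 6.09 in controls, and replicate 5 was the highest of all 30 arrays. S100a8 was 6.91 in replicate 5, 6.36 in replicate 4 and 4.24 to 4.87 in controls, while Mpo and Elane, made by neutrophil precursors, were 5.03 and 5.63 in replicate 5 against 4.91 to 5.12 and 5.43 to 5.76. The part of neutrophil content, and of the other markers given here, in the result was not tested. List means of B cell markers spanned 5.18 to 5.30 in treated glands and 5.27 to 6.51 in controls. Those of T cell markers spanned 5.503 to 5.79 and 5.57 to 6.79, and those of plasma cell markers 8.11 to 8.48 and 9.19 to 9.85. Replicate 5 ranked 29th of 30 for both B cell and T cell markers and 24th for germinal centre markers. The germinal centre mean rests on 2 tested of 7 listed genes, Bcl6 and S1pr2. It was 8.211, 8.394, 8.389, 8.385 and 7.856 in treated replicates 1 to 5, against 7.964 to 8.3 in controls. List means of fibroblast, basal and progenitor epithelial, and myoepithelial markers were lower in every treated gland than in every control. They were 8.77 to 9.84 against 9.87 to 10.13, 7.85 to 8.02 against 8.10 to 8.25, and 9.30 to 9.69 against 9.70 to 9.97. Some single genes overlapped between the groups, such as Pdgfra, Ascl3 and Acta2, and others did not, such as Dcn and Kit. Ascl3 was at 10.26 to 11.16 in treated glands and 10.47 to 10.90 in controls. The mean of the 3 tested of 7 skeletal muscle markers was 5.52 to 6.21 in treated glands and 5.11 to 5.54 in controls. Among the 3, only Myot was higher, at 5.37 to 7.63 in treated glands against 4.0 to 5.17 in controls. Acta1 was at 4.94 to 5.24 against 5.21 to 5.33, and Ckm at 5.88 to 6.25 against 5.87 to 6.28. Acinar list means were at 12.6 to 12.8 in both groups, while the parotid marker mean varied from 9.11 to 12.9 and from 9.23 to 13.6. The difference between 3′ and 5′ control probe sets, a sign of RNA quality, was 0.21 to 0.30 in treated and 0.23 to 0.38 in control glands.

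At week 8, 0 of the 32 genes were called higher (0% of all genes tested) and 0 lower (0.0692%). At an unadjusted p under 0.05, limma gave 1 of the 32 and 15.5% of all genes. The median difference was -0.12 over the 32 genes and 0.01 over all genes, and 7 lay above 0. Mki67 was 6.39, 6.75, 6.52, 6.83 and 6.54 in controls and 5.68, 6.22, 6.15, 6.19 and 6.32 after anti-CD40L. All 5 treated arrays lay below all controls, as in 0.792% of all genes, and the difference of -0.49 ± 0.44 was not past the threshold (adjusted p = 0.606). Tpx2 showed the reverse order, with 5.78 to 6.60 in treated glands and 5.47 to 5.67 in controls. That complete separation was seen in 0.323% of all genes, and the difference of 0.49 ± 0.18 did not pass either (adjusted p = 0.249). Pcna was 10.93, 10.74, 11.07, 10.91 and 10.86 in controls and 10.97, 10.83, 11.02, 10.75 and 10.75 after anti-CD40L, with full overlap.

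At week 24 the comparison again called 0 of the 32 genes, while 5.96% of all genes were called higher and 3.49% lower. At an unadjusted p under 0.05, limma gave 1 of the 32 and 29.6% of all genes. The median was 0.19 over the 32 genes and 0.03 over all genes, and 26 lay above 0. Ube2c had the largest difference, 0.81 ± 0.47 (adjusted p = 0.25), followed by Pbk at 0.68, Cdca3 at 0.64 and Birc5 at 0.64. Mki67 was 7.17, 7.13, 5.80, 6.004 and 6.95 in controls and 6.47, 7.67, 6.76, 6.71 and 7.05 after anti-CD40L, and only treated replicate 2 was above all controls. Birc5 was 5.47, 6.19, 4.79, 4.46 and 4.96 in controls and 5.16, 6.91, 5.65, 4.98 and 6.33 after anti-CD40L. Here replicates 2 and 5 were above every control. Pcna was 11.23, 11.31, 11.19, 10.63 and 11.19 in controls and 10.97, 11.37, 11.09, 11.17 and 11.02 after anti-CD40L, again with only replicate 2 above the controls.

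1 treated gland was highest in most of the genes at week 24 as well. Treated replicate 2 had a median 0.80 above the control mean, was above all controls in 23 of the 32 genes and was the highest of its group in 25. Replicate 5 was above all controls for 9 of 23 mitosis genes and 0 of 9 replication genes, with medians of 0.44 and -0.15. Among the 15 tested inhibitors 1 rose, Gas1, a growth arrest gene, by 0.84 ± 0.18 (adjusted p = 0.008). Among the 7 tested G1 cyclins and kinases 1 rose, Cdk6, by 0.93 ± 0.26 (adjusted p = 0.0271). In this comparison 5.96% of all genes were called higher, so the count of inhibitors is near that share. No gene of the further G1/S or G2/M lists was called at week 24. Without control week 24 replicate 2, 1 of the 32 genes was called, with the share of all genes not given here.

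Whether the treatment difference changed with age was tested directly. The effect at week 16 minus that at week 8 called 0 of the 32 genes, against 0.123% of all genes higher and 0.0231% lower, although 28 had an unadjusted p under 0.05 with limma, as had 13.6% of all genes. The median of that change was 1.06 over the 32 and 0.00 over all genes. The smallest adjusted p was 0.0883, for Cdk1 (2.14 ± 0.55) and Cdca8 (1.62 ± 0.43), and the largest change was 2.58 ± 0.70 for Pbk (adjusted p = 0.0912). Without treated week 16 replicate 4, 5 of the 32 were called, in a fit whose share of all genes is not given here. For week 24 minus week 8, 0 were called, against 0% higher and 0.00769% lower, with 1 at an unadjusted p under 0.05 (5.84% of all genes). For week 24 minus week 16, 0 were called, against 0.631% higher and 0.531% lower, with 13 at an unadjusted p under 0.05 (17.7% of all genes) and the smallest adjusted p at 0.0983 for Mcm2 (-0.66 ± 0.20).

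Within the anti-CD40L groups, 22 of the 32 genes rose from week 8 to week 16 and 1 fell. This comparison uses the same 5 treated week 16 arrays as the one above. In it, 24.1% of all genes were called higher and 12.5% lower, and the medians were 1.03 for the 32 genes and 0.09 for all genes. The largest rises were 2.03 ± 0.50 for Birc5 (adjusted p = 0.00348), 1.98 ± 0.44 for Mki67 (adjusted p = 0.00187) and 1.84 ± 0.49 for Pbk (adjusted p = 0.00614). Aurka rose by 1.56 ± 0.32, with the smallest adjusted p, 0.000977. Of the replication genes, 8 of 9 rose, Mcm3 being the exception at 0.39, and Mcm6 had the largest rise at 1.53 ± 0.34 (adjusted p = 0.00199). Cenpf, among the 22, was above the array median on 6 arrays, 4 of them treated week 16 arrays, so it was tested only through the group in which it was high. All 5 week 16 arrays were above all 5 week 8 arrays for Mcm2, Mcm4, Mcm5, Mcm6, Mcm7, Rrm1, Cdca8 and Aurka, 8 of the 32, a separation seen in 19.1% of all genes.

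List means of tissue markers also separated these 2 groups. Parotid markers were at 13.5 to 13.8 on treated week 8 arrays and 9.11 to 12.9 at week 16, with Amy1, the salivary amylase gene, at 13.18 to 13.70 and 7.34 to 12.41. Plasma cell markers were at 7.57 to 7.70 and 8.11 to 8.48, and the mean 3′ to 5′ difference was 0.37 and 0.26. With the Amy1 covariate the count was 21 higher and 1 lower, and with the 3′ to 5′ covariate it was 24 higher and 2 lower. The share of all genes called in these 2 fits is not given here. The Amy1 ranges of the 2 groups do not overlap, and the part of tissue content or RNA quality in the rise was not tested.

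The gene that fell was Tpx2, by 0.61 ± 0.18 on the log2 scale (adjusted p = 0.0129), with all week 16 arrays below all week 8 arrays, as in 8.09% of all genes. The other sets of Tpx2 gave 0.54, 0.62 and -0.62. Not called were Foxm1, Kif2c, Cdc20, Kif11, Bub1b, Mcm3, Prc1, Cenpa and Nusap1, with differences from -0.21 for Foxm1 to 1.03 for Nusap1 (adjusted p = 0.0708). Leaving out replicate 5 gave 19 higher and 1 lower, with 19.6% of all genes called higher, and leaving out replicate 4 gave 26 and 1, with 18.6%. In the fit with no filter, Melk (1.38), Kif20a (1.03), Aurkb (1.002) and Bub1 (1.07) also passed, at adjusted p values from 0.00271 to 0.028.

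The other cell cycle lists were counted over the same interval, in which 24.1% of all genes were called higher. Of the 27 further G1/S genes, 14 rose and 2 fell (Cdc45 and Fen1), led by Tk1 at 1.31 and Uhrf1 at 1.26, and of the 32 further G2/M genes 15 rose, led by Ect2 at 1.79 and Cep55 at 1.57. Without replicate 5 these counts were 8 with 2 lower, and 9, where 19.6% of all genes were called higher. Inhibitors had 5 of 15 higher, among them Rbl1 at 0.96, and G1 cyclins and kinases 4 of 7, led by Cdk6 at 1.10. In the control groups 4 of the 15 inhibitors and 5 of the 7 G1 genes rose over this interval, where 28.4% of all genes did; the count of inhibitors is at that share.

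In controls, 0 of the 32 genes rose from week 8 to week 16 and 2 fell, where 28.4% of all genes rose and 18.1% fell. Cdc20 was 7.47, 7.92, 8.20, 7.83 and 8.31 at week 8 and 7.02, 7.51, 7.46, 7.62 and 7.15 at week 16, with only week 8 replicate 1 inside the week 16 range. It fell by 0.59 ± 0.16 on the probe set used (adjusted p = 0.00409), and the other Cdc20 sets are not given for this interval. Kif11, a motor that separates spindle poles, fell by 0.56 ± 0.18 on the probe set used (adjusted p = 0.0118). It was above the array median on only 5 of the 30 arrays, the fewest that the filter allows. Control week 8 replicate 4, at 6.09, was among them, so Kif11 was tested only with the help of the group in which it was high. Its levels were 4.99 to 6.09 in week 8 controls and 4.69 to 5.25 in week 16 controls. The week 16 levels lie under the lowest array median, 5.49, so low signal limits this fall. Without control week 8 replicate 4, 1 of the 32 was called in this interval, with the share of all genes not given here. The 3′ to 5′ difference was 0.36 to 0.86 on control week 8 arrays and 0.23 to 0.38 at week 16, and 0 of the 32 were called with it as a covariate. The median over probe sets, which takes in the other sets of Cdc20, also gave 0 calls. With only the compared arrays in the fit, 7 were called, with the share of all genes not given here. From week 8 to week 24, Cdc20 alone of the 32 fell and 0 rose, against 8.49% of all genes higher and 4.01% lower. On the probe set used Cdc20 fell by 0.68 ± 0.16 (adjusted p = 0.0075). With the median over probe sets 0 of the 32 were called. From week 16 to week 24, 0 of the 32 were called, against 5% of all genes higher and 7.39% lower. At an unadjusted p under 0.05, limma gave 0, against 3894 of the 12998 genes. Without control week 24 replicate 2, 1 was called, with the share of all genes not given here.

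From week 16 to week 24 in the treated groups, Aurka and Cdca8 fell and Foxm1 rose, where 2.5% of all genes rose and 2.88% fell. Aurka at week 24 was 4.99, 5.997, 5.57, 4.96 and 6.01, so replicates 2 and 5 were above the lowest week 16 array. It fell by 1.28 ± 0.32 (adjusted p = 0.0177), and Cdca8, at 5.92, 7.06, 6.18, 5.82 and 6.76, fell by 1.03 ± 0.30 (adjusted p = 0.0437). Foxm1 rose by 0.47 ± 0.12 on the probe set used (adjusted p = 0.021). That set was at 11.46 to 11.89 at week 16 and 11.96 to 12.40 at week 24, without overlap, as in 5.15% of all genes. The other Foxm1 sets averaged 3.25 to 6.72 over all arrays and are not given for this interval. The median of the 32 genes was -0.66, against 0.01 over all genes, and 2 lay above 0. Without treated week 16 replicate 5, 1 gene was called lower, and without replicate 4, 12 were. Leaving out treated week 24 replicate 1 or replicate 4 gave 0 calls, and leaving out replicate 2 gave 5. The share of all genes called is not given here for these fits with an array left out.

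From week 8 to week 24 in the treated groups, 0 of the 32 were called, against 16.5% of all genes higher and 7.12% lower, with 3 at an unadjusted p under 0.05 in limma (39.3% of all genes). The smallest adjusted p was 0.0622, for Mcm4 (0.57 ± 0.23). With only the compared arrays in the fit, 7 were called, with the share of all genes not given here. Mcm4, Mcm5, Mcm6, Mcm7 and Mki67 were higher on all 5 week 24 arrays than on all 5 week 8 arrays, 5 of the 32, as in 12.4% of all genes. The median SE of a difference was 0.32 for the 32 genes and 0.14 for all genes tested, and 0.46 and 0.20 for changes of the treatment effect.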

How the data were processed

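Expression in 30 salivary glands was read from the table deposited by the authors, whose log2 intensities have array medians of 5.49 to 5.54. Per the submitters' processing notes limma was used; the probe summary and normalisation are not given in the sources used here. Of 45101 probe sets, which include 64 array controls, 34958 name exactly 1 gene in the platform table, 932 name several and 9211 none. Each gene is represented by its probe set of highest mean, and tested if above its own array's median on at least 5 arrays. All 30 arrays were fitted in limma 3.58.1 (R 4.3.3) with 1 mean per treatment-by-week group and 12 contrasts, and p-values were adjusted by Benjamini-Hochberg over all 12998 genes tested, with a threshold of 0.05. The fit was tested on simulated data. The number of arrays limits the precision.

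The 40 genes and all lists were chosen with earlier results of these data known, so no count over them is independent support. All 40 could be named; array values are given for called genes in treatment comparisons (the 8 of largest change) with Mki67 and Pcna, at most 4 called genes per other list and comparison are named, and promoters are given for 4 mitosis and 2 replication genes of largest change. Replicate numbers were not used as pairs: the median correlation of deviations was -0.03 for same-numbered and 0.01 for other arrays. Alternatives were quantile normalisation, median centring, other filters, the median over probe sets, array weights, fits of only the compared arrays, a trended robust fit, a replicate block, covariates for 3′ to 5′ difference and Amy1, and each array left out. A fit without the 5 arrays of lowest correlation was chosen after seeing the data.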

Additional observations from a re-analysis of the deposited data

Results flagged for a closer look

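Within groups of 5 arrays, a value was singled out where its gap to the nearest array, divided by the range of the group, exceeded Dixon's 95% critical value of 0.71; chance alone singles out about 1 in 20 groups. The mean of the 32 genes was highest in control week 8 replicate 3, at 6.87. Birc5 was also highest in that array, at 5.75. Mki67 was lowest in anti-CD40L week 8 replicate 1, at 5.68. Pbk was highest in anti-CD40L week 24 replicate 2, at 8.20. Pcna was lowest in control week 24 replicate 4, at 10.63. Over the 32 genes, between 1 and 3 were singled out in each of the 6 groups.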

How the results depend on the processing

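The count of called genes at week 16, 9, was 24 with array weights, 17 with the 3′ to 5′ covariate and 1 with only the compared arrays. The replicate block, with numbers that do not pair the arrays, gave 10, and 23 for treated week 16 minus week 8. Shares of all genes called are not given for the counts in this section, so a change in a count is not set against them. Cdk1 stayed past the threshold at week 16 in every setting run, and Aurka in all but the fit of only the compared arrays (adjusted p = 0.0579). With each array left out the counts ranged from 2 to 20 at week 16, 0 to 1 at week 24, 1 to 3 in control week 16 minus week 8, 0 to 1 in control week 24 minus week 16, 0 to 12 in treated week 24 minus week 16 and 0 to 5 for the effect at week 16 minus week 8. Treated week 16 minus week 8 gave 13 under the 70th percentile filter. Control week 16 minus week 8 gave 1 under that filter, 0 with the median over probe sets, 7 with only the compared arrays, 0 with the 3′ to 5′ covariate and 1 without the 5 arrays of lowest correlation. Control week 24 minus week 8 gave 0 with the median over probe sets and 0 with only the compared arrays. Treated week 24 minus week 8 gave 2 and 7 in those settings, and treated week 24 minus week 16 gave 1 and 1, and 7 with array weights. The effect at week 16 minus week 8 gave 3 with array weights, and at week 24 minus week 16 gave 1 with the Amy1 covariate. The median over probe sets turned the sign of Foxm1 (0.16) and Tpx2 (0.015) at week 16, and of Cdc20 (1.44) and Top2a (-0.0012) in treated week 16 minus week 8, because it takes in probe sets that differ. In treated week 16 minus week 8 it also turned Foxm1 (0.28, adjusted p = 0.125), and values near 0 turned for Kif2c in 3 settings (0.03 to 0.05) and 1 fit with an array left out (0.025), and for Kif11 in 3 such fits (-0.16 to -0.05). Cdc20 in that comparison, -0.04 with all arrays, ranged from -0.2181 to 0.033 with each array left out. Apart from that, the cause of these moves was not tested. Low signal limits Kif11, Cenpf, Birc5 and Plk1, which were above the array median on 5, 6, 9 and 9 arrays.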
